A study of Mus musculus with 8 samples.

Results

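The genes described here build the route by which secreted proteins enter the endoplasmic reticulum (ER), receive their sugars and leave for the Golgi. They were chosen by name: 54 genes of the translocation, glycosylation and coat protein machinery were looked up by the platform's gene symbol, and where a gene had several rows the row of highest mean was kept. Of the 54, 53 had a row with a single symbol among the 22180 genes so measured, and Srp54a, found only in 2 rows that carry several gene symbols, was not analysed. Expression was measured in total RNA of whole pancreas from C57 BL6 mice, 6 days after tamoxifen at 3 mg per 40 g by intraperitoneal injection, in Lmna knockout pancreas (LmnaKO, called KO, 4 arrays) and in control pancreas (LmnaWT, called WT, 4 arrays). Both genotypes received tamoxifen, and no group without it was analysed here. Of the 4 arrays of a genotype, 3 were from males and 1, replicate 4, from a female. Going by its title, the study ablated the gene in acinar cells, which make and secrete the digestive enzymes. The labels state neither the Cre driver nor the animals' age nor whether animals were pooled, and each p-value below therefore reflects only how these 8 samples vary.

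A secretory protein is recognised on the ribosome by the signal recognition particle, handed to its receptor on the ER and threaded through the Sec61 channel. Signal peptidase then cuts off its leader, and the oligosaccharyl transferase attaches sugar chains in the ER lumen. COPII vesicles carry finished cargo towards the Golgi, while COPI vesicles return escaped ER proteins and machinery. Acinar cells are among the most active protein-secreting cells of the body and rely heavily on this route.

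Values are log2 expression, and differences are log2 units, KO minus WT, with the standard error (SE) of the limma fit and a p adjusted over all 22180 genes; a gene passed at an adjusted p under 0.05. The acinar enzymes Ctrb1 (mean 12.31 in KO, 12.37 in WT) and Cpa1 (12.11 in KO, 12.24 in WT) read near the highest value of the table, 12.467, in both genotypes. Of 9 acinar markers, these 2 among them, 4 were lower in KO and 5 did not pass. The lower ones were Amy2b (-1.89 ± 0.14 SE), Rbpjl (-1.60 ± 0.17 SE), Bhlha15 (-1.42 ± 0.12 SE) and Prss2 (-0.89 ± 0.14 SE). Lmna itself read 2.33 to 2.73 in KO and 2.54 to 3.13 in WT (-0.24 ± 0.15 SE, limma adjusted p = 0.264). The position of its probes relative to the deletion is unknown and the row is dim, so it cannot serve as a check of genotype. Of 11 macrophage markers, 4 were higher in KO (36.4%: Adgre1, Cd68, C1qb and C1qc) and 7 did not pass, near the 37.9% of all genes at a mean level of 4 to 6 that were higher. All 11 had a difference above 0, of 1.05 to 2.29, with a median of 1.55, against 0.47 over all genes at a mean level of 4 to 6. The list means of the arrays overlapped, at 5.21 to 6.91 in KO and 3.74 to 5.56 in WT. Of 9 markers of plasma and B cells, which are also rich in secretory machinery, 0 passed in the limma fit, and their list mean was 1.94 to 3.84 in KO and 2.12 to 2.87 in WT. KO 2 had the highest KO value of both marker lists. It was also the lowest KO array in 38 of the 53 secretory genes, as it was in 44.4% of all genes at a mean level of 6 to 10. WT 2 was the lowest WT array in 43 of the 53 and in 71.6% of all genes of that level.

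In KO pancreas 17 of the 53 genes were higher and 1, Ssr4, was lower. None of the 19 genes of targeting, translocation and signal cleavage was higher. Higher in the later steps were 3 of 6 genes of the oligosaccharyl transferase, 4 of 12 of COPII, 7 of 9 of COPI and 3 of 7 cargo receptors. The median difference was 0.05 over the 19 early genes, 0.44 over the oligosaccharyl transferase and 0.48 over the 28 genes of vesicle transport. Over all genes it was -0.06, but 15916 of the 22180 had a mean level under 4, with a median of -0.15. At mean levels of 4 to 6, 6 to 8 and 8 to 10 the median over all genes was 0.47, 0.39 and 0.17, which is the closer comparison. These differences between steps were not tested, and 6 of 13 further genes of the early steps, described below, were higher. In bulk tissue, fewer cells of a type and less RNA per cell cannot be told apart.

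**Figure D1:**
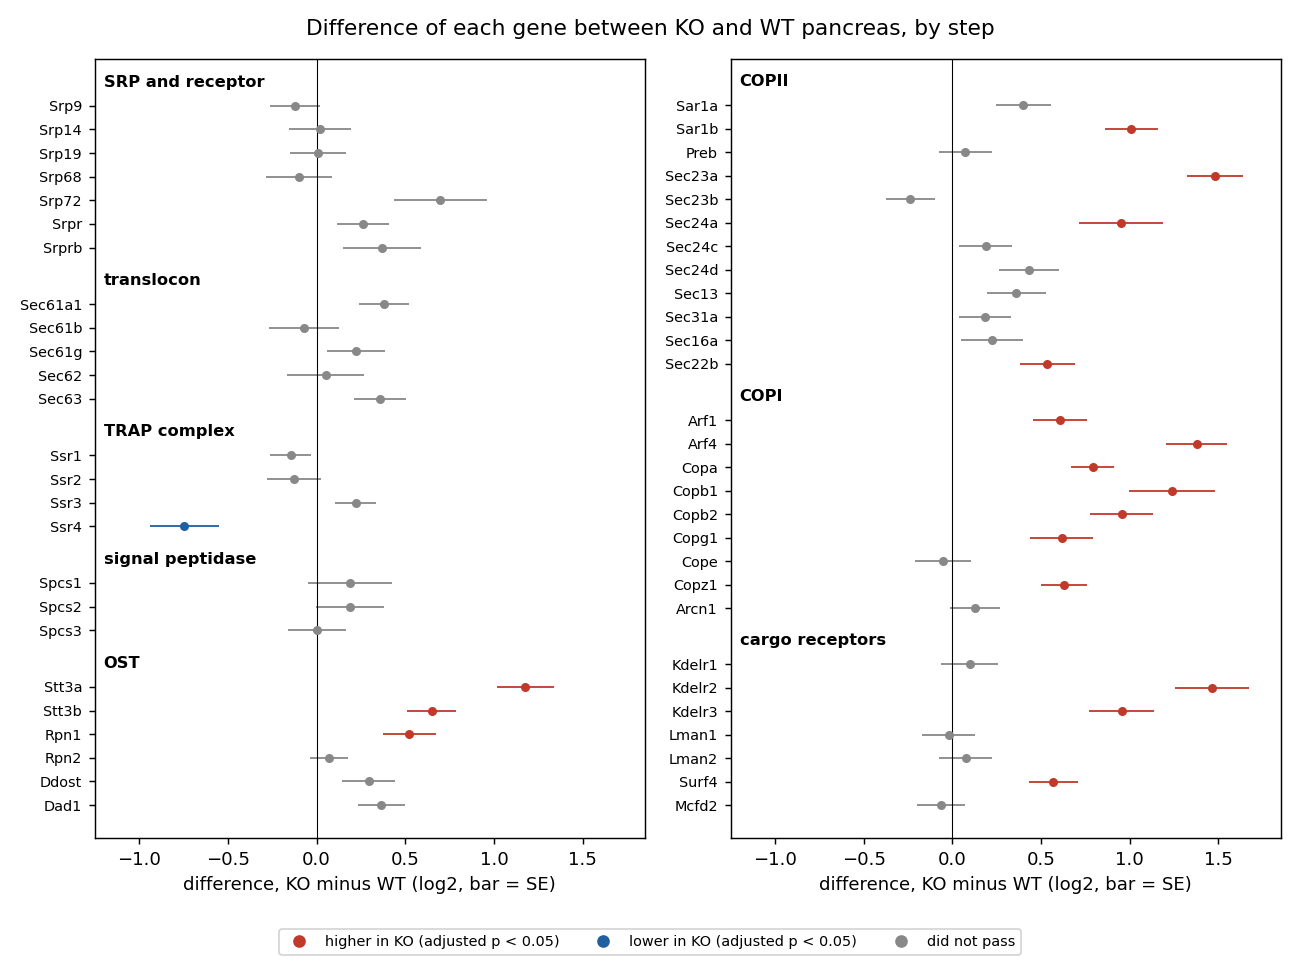
Difference between KO and WT pancreas (log2, KO minus WT, x axis) of each of the 53 measured genes, grouped by step; points are the fitted differences, bars their SE (n = 4 arrays per genotype), red marks genes higher and blue genes lower in KO past the threshold. Red points fill most of COPI and are missing from the signal recognition particle (SRP), translocon, TRAP and signal peptidase blocks.

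Over all genes, 14.6% passed as higher and 6.99% as lower in KO. Genes of the level at which this machinery is expressed rose more often. Among all genes with a mean level of 6 to 8, 33.1% were higher and 5.43% lower, and of the secretory genes at that level 9 of 31 (29.0%) were higher and 1 lower. At a level of 8 to 10 the shares over all genes were 26.5% and 13.7%, and 6 of 16 secretory genes (37.5%) were higher and 0 lower. At 4 to 6 the shares over all genes were 37.9% and 3.27%, and 2 of 5 secretory genes were higher. Taken as a whole, the count of 17 lies near what genes of these levels show. The median difference at a level of 6 to 8 was 0.22 over the secretory genes and 0.39 over all genes, and at 8 to 10 it was 0.39 over the secretory genes and 0.17 over all genes. KO and WT values did not overlap in 21 genes that were higher and 1 that was lower, where 15.3% and 12.1% of all genes did not overlap. Those 2 shares cover genes of every level, so they are not a level-matched background. Level 4 to 6 held 1813 rises without overlap among 4708 genes, and 2 among 5 secretory genes. Level 6 to 8 held 490 among 1288 genes, and 11 among 31 secretory genes. Level 8 to 10 held 62 among 211 genes, and 8 among 16 secretory genes. These counts were not tested.

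**Figure D2:**
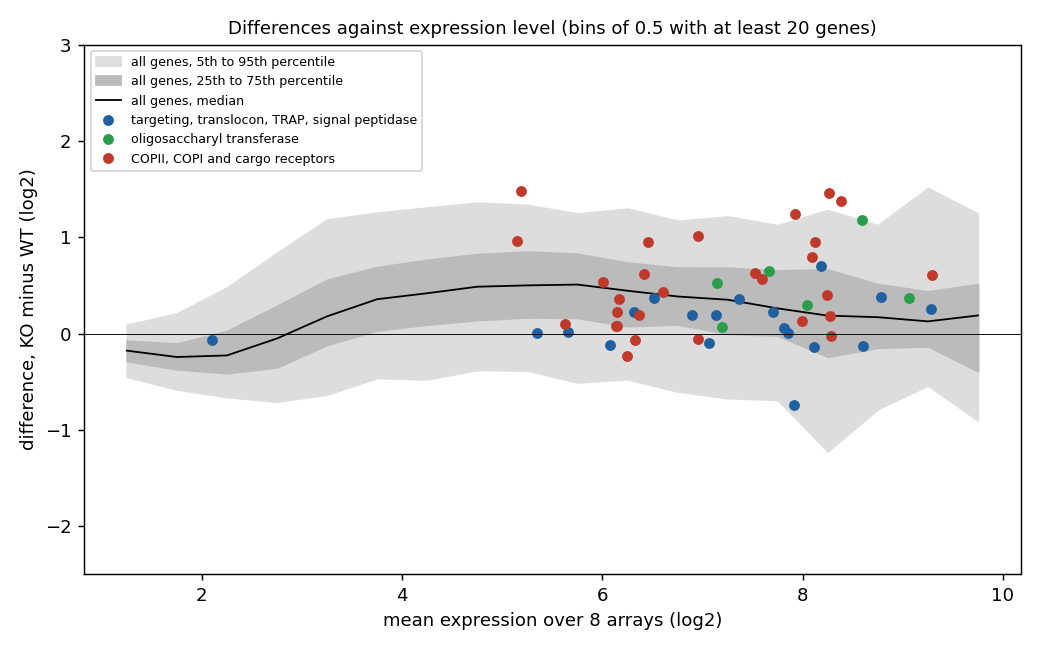
Difference between KO and WT (log2, y axis) against mean expression over the 8 arrays (log2, x axis); the line and bands give the median and percentiles of all genes in bins of 0.5 log2 units with at least 20 genes, and points are the 53 secretory genes. The early genes (blue) lie mostly at or under the median line, while Sec23a, Kdelr2, Arf4 and Copb1 (red) lie above the 95th percentile band.

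Over all genes the interquartile range was 2.88 to 3.03 log2 units in KO arrays and 2.11 to 2.48 in WT arrays, and directions depended on how the arrays were scaled. As deposited, 43 of the 53 genes had a difference above 0. After quantile rescaling, a further quantile normalization that forces the 8 arrays to 1 distribution, 26 of 53 did, the median of the 53 was -0.03, and 8 genes passed as higher and 4 as lower, where 4.65% and 5.66% of all genes did. After loess rescaling, a cyclic loess that removes level-dependent differences between arrays, 26 of 53 were above 0, the median was -0.04, and 9 passed as higher and 5 as lower, against 6.11% and 5.69% of all genes. The shares after rescaling cover genes of every level. They were not worked out by level, so they are not a level-matched background. After centring each array on its median 47 were above 0, with 17 higher and 0 lower. All 8 and 9 higher genes of the first 2 scalings were among the 17. Of all calls over the 22180 genes, 67.6% were higher in KO as deposited, 45.1% after quantile rescaling, 51.8% after loess rescaling and 82.1% after centring.

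**Figure D3:**
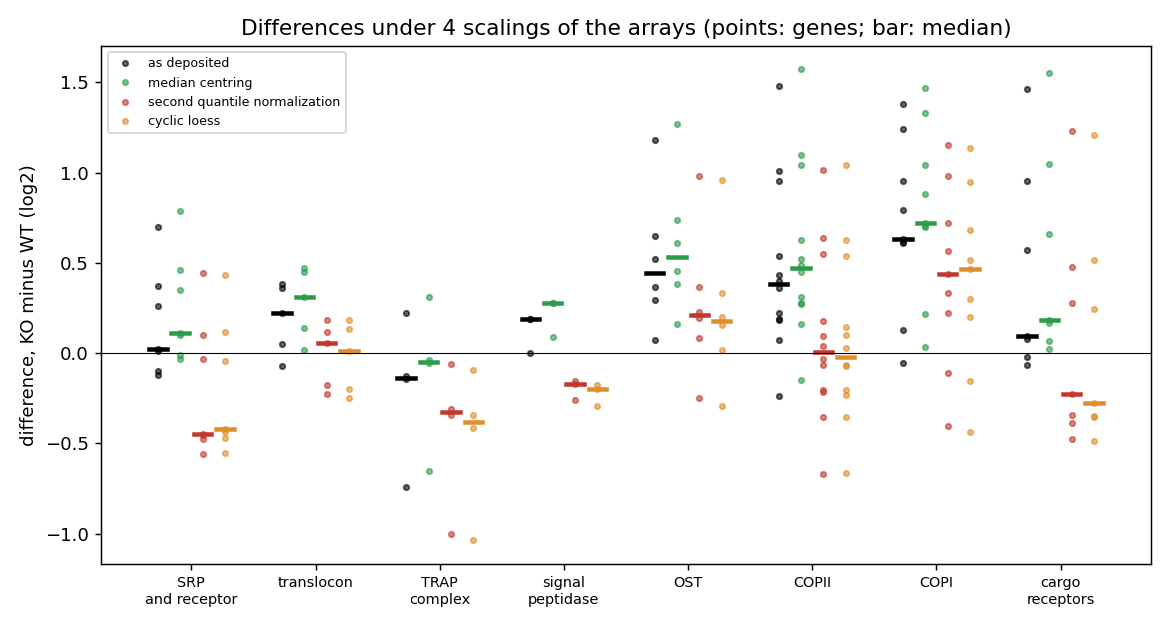
Differences between KO and WT (log2, y axis) of the 53 genes by step (x axis) under 4 scalings of the arrays; points are genes and bars the median of the step. The COPI, oligosaccharyl transferase and translocon medians stay above 0 under all 4, that of the translocon near 0 after quantile rescaling (0.06) and loess rescaling (0.01). The TRAP median is below 0 under all 4. Those of SRP, signal peptidase and cargo receptors fall below 0 after quantile rescaling and loess rescaling, and that of COPII lies near 0 there.

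A short promoter sequence, which the choice of genes did not use, was found in some of them. The UPRE core, TGACGTGG, is a sequence bound by XBP1 and ATF6, transcription factors of the unfolded protein response. It was searched on both strands in RefSeq promoter windows (GRCm38.p6, 250 bases before to 50 after a start site), which 46 of the 54 genes had (Sec61a1, Ssr2, Srp19, Srp68, Spcs3, Arcn1, Kdelr2 and Lman1 had none). It was found in 6 genes, 13.0% of the 46, while 0.714% of all 27025 genes with a window held it. Of the 16 higher genes with a window 5 held it, namely Sec23a, Arf1, Copb1, Copb2 and Kdelr3, against 1 of the 28 that did not pass, Sec24d. Among all measured genes of a mean level of 4 to 10, 1.56% of those higher in KO and 1.33% of those that did not pass held it. The matches lie near the start site, and the 5 genes whose values are given below for every array are shown from 70 bases before to 30 bases after it, 5′ to 3′ on the gene's strand, with the match in capitals. Written on the other strand the core reads CCACGTCA.
Sec23a (chr12:59011988-59012087, minus strand): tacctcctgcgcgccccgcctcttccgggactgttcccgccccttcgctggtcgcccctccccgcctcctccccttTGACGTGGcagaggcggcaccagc
Arf1 (chr11:59228238-59228337, minus strand): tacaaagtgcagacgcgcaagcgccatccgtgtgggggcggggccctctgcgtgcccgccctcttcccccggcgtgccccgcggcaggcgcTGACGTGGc
Copb2 (chr9:98563661-98563760, plus strand): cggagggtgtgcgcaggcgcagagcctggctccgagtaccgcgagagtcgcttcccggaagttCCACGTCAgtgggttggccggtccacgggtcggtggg
Kdelr3 (chr15:79516338-79516437, plus strand): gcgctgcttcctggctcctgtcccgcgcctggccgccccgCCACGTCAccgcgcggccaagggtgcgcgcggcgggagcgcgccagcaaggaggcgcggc
Sec24d (chr3:123267426-123267525, plus strand): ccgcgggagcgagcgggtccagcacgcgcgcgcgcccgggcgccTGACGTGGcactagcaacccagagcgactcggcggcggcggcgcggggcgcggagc

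In Sec23a the match begins 7 bases after the start site and in Arf1 22 bases after it; a second, downstream start of Arf1 places the same genomic match 84 bases before it. In Copb2 it spans the start, and in Kdelr3, Copb1 and Sec24d it begins 30, 28 and 26 bases before it. The longer ER stress element ERSE (CCAAT, then any 9 bases, then CCACG) was in 0 of the 46 genes and 0.137% of all genes with a window, and ERSE-II (ATTGG, any base, CCACG) in 0 and 0.044%. The ATF4 core (TGATG, any base, AA) was in 1 of the 46, Kdelr1, and in 4.51% of all genes. The CCAAT box, which also opens an ERSE, was in 47.8% of the 46 and 41.1% of all genes. A match is a description of the letters in these windows, and binding was not measured.

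The signal recognition particle and its receptor deliver ribosomes to the ER, and 0 of their 7 measured genes passed in the limma fit. Srp72, whose product binds the RNA of the particle together with that of Srp68, came nearest. Srp72 read 8.76, 8.46, 8.45 and 8.46 in KO 1 to KO 4, against 8.42, 6.98, 7.94 and 7.99 in WT 1 to WT 4. The groups did not overlap, although WT 1 came close to the KO arrays and WT 2 was far below the other WT arrays (0.70 ± 0.26 SE, limma adjusted p = 0.0822). It passed with the replicate number as a block (adjusted p = 0.0428), without WT 1 (adjusted p = 0.0263) and with array weights (adjusted p = 0.0448). Srp68 (-0.10), Srp9 (-0.12) and Srp14 (0.02), the last 2 forming the domain that slows elongation, and Srp19 (0.01), which helps assemble the particle, lay close to 0. The receptor genes Srpr (0.26 ± 0.15 SE) and Srprb (0.37 ± 0.22 SE) did not pass either. Srp9 passed as lower after quantile rescaling (-0.56) and loess rescaling (-0.55), and Srp68 after loess rescaling (-0.47).

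The Sec61 translocon showed no called change in any of its 5 genes. Sec61a1, the channel itself, read 9.02, 9.02, 8.83 and 9.03 in KO 1 to KO 4 and 8.65, 8.26, 8.83 and 8.64 in WT 1 to WT 4 (0.38 ± 0.14 SE, limma adjusted p = 0.0774). KO 3 and WT 3 read the same to 2 decimals, and KO 1, KO 2 and KO 4 exceeded every WT value. Sec63, which recruits the lumenal chaperone BiP to the channel, differed by 0.36 ± 0.15 (limma adjusted p = 0.104), without overlap of the groups. Its partner Sec62 (0.05 ± 0.22 SE) and the small subunits Sec61g (0.22 ± 0.16 SE) and Sec61b (-0.07 ± 0.20 SE) did not pass. The Sec61b row was dim, with a mean of 2.10.

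The TRAP complex sits beside the channel and helps certain signal peptides to engage it. Its subunit Ssr4 held the only called fall among the 53 genes. Ssr4 read 7.75, 6.98, 7.87 and 7.55 in KO 1 to KO 4, against 8.25, 8.17, 8.54 and 8.18 in WT 1 to WT 4. All KO arrays were below all WT arrays, and KO 2 was lowest (-0.74 ± 0.19 SE, limma adjusted p = 0.0251). The call was lost without KO 4 or without WT 3, after median centring and among males only, while the difference was -1.003 after quantile rescaling and -1.04 after loess rescaling. Ssr1 (-0.14 ± 0.12 SE), Ssr2 (-0.13 ± 0.15 SE) and Ssr3 (0.22 ± 0.11 SE) did not pass. The KO and WT values of these 3 subunits overlapped.

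Signal peptidase genes Spcs1 (0.19 ± 0.24 SE), Spcs2 (0.19 ± 0.19 SE) and Spcs3 (0.00 ± 0.16 SE), which encode its noncatalytic subunits, did not pass. Spcs3 averaged 7.86 ± 0.07 in KO and 7.86 ± 0.33 in WT (SD, n = 4 each).

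The oligosaccharyl transferase exists in 2 forms that carry either Stt3a or Stt3b as the catalytic subunit, and both rose. STT3A works on chains as they leave the translocon, and STT3B also on sites that were missed. Stt3a read 9.21, 9.04, 9.19 and 9.28 in KO 1 to KO 4, against 8.23, 7.62, 8.28 and 7.87 in WT 1 to WT 4. All KO arrays were well above all WT arrays (1.18 ± 0.16 SE, limma adjusted p = 0.00246), and the call held in all 18 alternatives. Stt3b read 7.92, 8.11, 8.04 and 7.90 in KO 1 to KO 4, against 7.26, 7.06, 7.47 and 7.58 in WT 1 to WT 4. The groups again did not overlap (0.65 ± 0.14 SE, limma adjusted p = 0.0121), but the call was lost after quantile rescaling (0.37) and loess rescaling (0.33). Rpn1, ribophorin I, which presents substrates to the enzyme, read 7.38, 7.37, 7.39 and 7.48 in KO 1 to KO 4, against 6.54, 6.82, 7.22 and 6.94 in WT 1 to WT 4. KO arrays were tightly grouped above a wider WT group (0.52 ± 0.15 SE, limma adjusted p = 0.0337), and the call was lost in 9 of the 18 alternatives, among them the leaving out of any single KO array. The shared subunits Rpn2 (0.07 ± 0.11 SE), Ddost (0.29 ± 0.15 SE) and Dad1 (0.37 ± 0.13 SE) did not pass. Dad1 passed without WT 1 (0.45) and with array weights (0.38).

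COPII vesicles form when the GTPase SAR1, loaded by PREB on the ER, recruits the inner coat of SEC23 and SEC24 and then the outer cage of SEC13 and SEC31. Of 12 genes of this step 4 rose (33.3%), namely Sec23a, Sar1b, Sec24a and the SNARE Sec22b, a share near that of all genes at a mean level of 6 to 8. Sec23a, whose product stimulates SAR1 to hydrolyse GTP, read 5.83, 5.90, 5.72 and 6.27 in KO 1 to KO 4, against 4.65, 4.30, 4.22 and 4.61 in WT 1 to WT 4. Every KO array was far above every WT array (1.48 ± 0.16 SE, a fold of 2.79, limma adjusted p = 0.00126). Its relative Sec23b read 6.23, 6.10, 5.95 and 6.22 in KO 1 to KO 4, against 6.62, 6.09, 6.36 and 6.38 in WT 1 to WT 4. The groups overlapped (-0.24 ± 0.14 SE, limma adjusted p = 0.224), but Sec23b passed as lower after quantile rescaling (-0.67) and loess rescaling (-0.66).

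Sar1b read 7.58, 7.23, 7.58 and 7.43 in KO 1 to KO 4, against 6.68, 6.16, 6.60 and 6.35 in WT 1 to WT 4, with no overlap (1.01 ± 0.15 SE, limma adjusted p = 0.00331). Sar1a read 8.66, 8.17, 8.54 and 8.38 in KO 1 to KO 4, against 8.03, 7.72, 8.24 and 8.16 in WT 1 to WT 4. Only KO 2 fell within the WT range (0.40 ± 0.16 SE, limma adjusted p = 0.0893). Of the cargo-binding SEC24 genes, Sec24a read 7.14, 6.79, 6.97 and 6.82 in KO 1 to KO 4, against 5.89, 5.27, 6.40 and 6.35 in WT 1 to WT 4. The groups did not overlap (0.95 ± 0.23 SE, limma adjusted p = 0.0208), and the call was lost without KO 3, without KO 4, among males only, after quantile rescaling (0.55) and after loess rescaling (0.54). Sec24d read 6.82, 6.80, 6.87 and 6.80 in KO 1 to KO 4, against 6.48, 5.87, 6.56 and 6.64 in WT 1 to WT 4, without overlap (0.43 ± 0.17 SE, limma adjusted p = 0.0892). Sec24c read 6.56, 6.28, 6.46 and 6.52 in KO 1 to KO 4, against 6.16, 5.94, 6.43 and 6.54 in WT 1 to WT 4, with overlapping groups (0.19 ± 0.15 SE, limma adjusted p = 0.366). Its difference turned to -0.21 after quantile rescaling and -0.23 after loess rescaling.

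Sec22b, a SNARE that fuses vesicles between the ER and the Golgi, was the other called rise (0.54 ± 0.15 SE, limma adjusted p = 0.0354), and it lost its call in 9 of the 18 alternatives. The outer cage genes Sec13 (0.36 ± 0.17 SE) and Sec31a (0.18 ± 0.15 SE), the exit-site organiser Sec16a (0.22 ± 0.18 SE) and Preb (0.07 ± 0.15 SE) did not pass. Sec16a was nearly the same in all KO arrays (6.26 ± 0.02) and more spread in WT (6.04 ± 0.38, SD, n = 4 each).

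**Figure D4:**
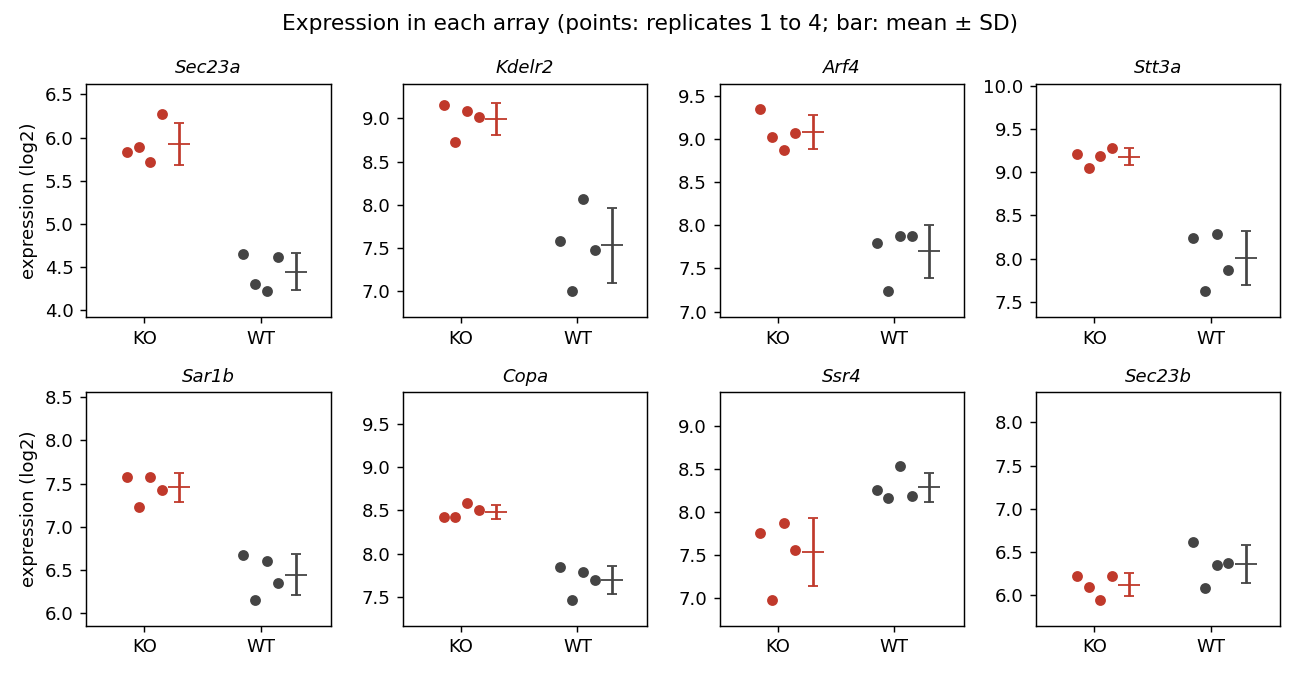
Expression (log2, y axis) in each of the 4 KO and 4 WT arrays for 8 genes, with the mean and SD beside the points; all panels span the same range of log2 units. The groups are apart in the 6 genes whose call held in all 18 alternatives (Sec23a, Kdelr2, Arf4, Stt3a, Sar1b and Copa), KO lies below WT in Ssr4, and the groups overlap in Sec23b.

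COPI coats are built from 7 coatomer subunits on membranes marked by ARF GTPases, and 7 of 9 genes of this step rose. Arf4 read 9.34, 9.02, 8.87 and 9.07 in KO 1 to KO 4, against 7.80, 7.24, 7.88 and 7.87 in WT 1 to WT 4. Every KO array was far above every WT array (1.38 ± 0.17 SE, a fold of 2.60, limma adjusted p = 0.00204). A second, dim row of Arf4, which was not kept, read 1.47 to 1.84 in KO and 1.73 to 2.62 in WT, and on the mean of both rows the difference was 0.51 (limma adjusted p = 0.044). Arf1, the classical recruiter of coatomer, read 9.67, 9.27, 9.72 and 9.72 in KO 1 to KO 4, against 9.16, 8.71, 9.13 and 8.96 in WT 1 to WT 4. The groups did not overlap (0.61 ± 0.15 SE, limma adjusted p = 0.0223), but the call was lost in 6 of the 18 alternatives, among them the leaving out of KO 1, KO 3, KO 4 or WT 4.

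Of the coatomer subunits, Copa read 8.43, 8.42, 8.59 and 8.51 in KO 1 to KO 4, against 7.84, 7.47, 7.78 and 7.69 in WT 1 to WT 4. The groups did not overlap, and the call held in all 18 alternatives (0.79 ± 0.12 SE, limma adjusted p = 0.00369). Copb2 read 8.77, 8.44, 8.49 and 8.70 in KO 1 to KO 4, against 8.02, 7.22, 7.77 and 7.56 in WT 1 to WT 4 (0.95 ± 0.18 SE, limma adjusted p = 0.00722). Together with the product of Copa, that of Copb2 forms the outer layer that binds retrieval signals, and its KO arrays all lay above the WT arrays. Copb1 (1.24 ± 0.24 SE, limma adjusted p = 0.00892), Copz1 (0.63 ± 0.13 SE, limma adjusted p = 0.0106) and Copg1 (0.62 ± 0.18 SE, limma adjusted p = 0.0365), subunits of the inner layer, also rose. Copb1 and Copb2 lost their call only among males, where Copb1 had an adjusted p of 0.0697 and Copb2 of 0.0674. Copg1 lost its call when any single KO array or WT 4 was left out, among males only, and after quantile rescaling (0.22) or loess rescaling (0.20). Copz1 lost its call among males only, after quantile rescaling (0.33) or loess rescaling (0.30), and on the mean of its rows (0.43). The remaining subunits Cope (-0.05 ± 0.16 SE) and Arcn1 (0.13 ± 0.14 SE) did not pass. After quantile rescaling 4 of the 9 COPI genes passed as higher, and after loess rescaling 5 did, with 0 lower in both, and among males only 2 did.

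KDEL receptors bind ER proteins that have reached the Golgi and return them in COPI vesicles. Kdelr2 read 9.15, 8.72, 9.08 and 9.01 in KO 1 to KO 4, against 7.58, 7.003, 8.06 and 7.47 in WT 1 to WT 4. The groups lay far apart (1.46 ± 0.21 SE, a fold of 2.76, limma adjusted p = 0.00286). Kdelr3 read 5.84, 5.12, 5.82 and 5.72 in KO 1 to KO 4, against 4.77, 4.36, 4.74 and 4.797 in WT 1 to WT 4. Its groups did not overlap (0.96 ± 0.18 SE, limma adjusted p = 0.00828), but the call was lost after quantile rescaling (0.47), after loess rescaling (0.51) and among males only. Kdelr1 read 5.84, 5.28, 5.87 and 5.68 in KO 1 to KO 4, against 5.64, 5.36, 5.77 and 5.52 in WT 1 to WT 4. Its groups overlapped (0.10 ± 0.16 SE, limma adjusted p = 0.663), and the difference turned to -0.39 after quantile rescaling and -0.35 after loess rescaling.

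Among receptors that load cargo at the ER, Surf4, which exports soluble secretory proteins, read 7.91, 7.78, 7.79 and 8.04 in KO 1 to KO 4, against 7.53, 7.05, 7.47 and 7.19 in WT 1 to WT 4. The groups did not overlap (0.57 ± 0.14 SE, limma adjusted p = 0.0206), and the call was lost without KO 4 or WT 4, among males only, and after quantile rescaling (0.28) or loess rescaling (0.25). The lectin Lman1 (-0.02 ± 0.15 SE) and its partner Mcfd2 (-0.06 ± 0.14 SE), which together carry coagulation factors, and the lectin Lman2 (0.08 ± 0.15 SE) did not pass. Mcfd2 passed as lower after quantile rescaling (-0.47) and loess rescaling (-0.49).

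Whether related genes changed alike was asked by subtracting them within each array, which cancels a shift that is equal for both genes. It does not cancel the wider spread of the KO arrays where the 2 relatives lie at different levels. After quantile rescaling 8 pairs separated the genotypes, and after loess rescaling 9 did. In 11 pairs of relatives compared, 7 separated the genotypes without overlap. Each had an exact two-sided permutation p of 0.0286, the smallest that 4 against 4 arrays allow. After Benjamini-Hochberg adjustment over the 11 pairs this p was 0.0449. All 7 were tied at the smallest p, so the adjusted value rests on how many pairs are tied there. The pairs share genes, so they are not independent, and with arrays taken as 4 pairs the smallest p would be 0.125. Sec23b minus Sec23a was 0.19 ± 0.19 in KO and 1.91 ± 0.17 in WT (SD, n = 4 each), a change of -1.72. Kdelr2 minus Kdelr1 was 3.32 ± 0.10 in KO and 1.96 ± 0.26 in WT, a change of 1.37, and Kdelr3 minus Kdelr1 changed by 0.86. Arf4 minus Arf1 was -0.52 ± 0.28 in KO and -1.29 ± 0.16 in WT, a change of 0.77. This depended on the rows kept: on the mean of each gene's rows the change was 0.07 and the groups overlapped, which left 6 separated pairs. With fewer pairs tied, the adjusted p of every separated pair would be above 0.0449. It was not worked out for that row choice, so the adjusted p of all 7 pairs depends on the rows kept. Sar1b minus Sar1a changed by 0.61, Sec24a minus Sec24c by 0.76 and Sec24d minus Sec24a by -0.52. Such values compare changes and not the amounts of the 2 transcripts, since probes differ.

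The other 4 pairs were not separated. Stt3a minus Stt3b was 0.94 to 1.38 in KO and 0.29 to 0.98 in WT (change 0.53, exact two-sided permutation p = 0.0571, adjusted p = 0.0786 over the pairs). Kdelr3 minus Kdelr2 was -3.61 to -3.26 in KO and -3.32 to -2.64 in WT (change -0.51, exact two-sided permutation p = 0.0857), and Sec24d minus Sec24c 0.26 to 0.51 in KO and -0.07 to 0.32 in WT (change 0.25, exact two-sided permutation p = 0.0857). Lman1 minus Lman2 was 1.93 to 2.27 in KO and 2.12 to 2.34 in WT (change -0.10, exact two-sided permutation p = 0.343). The labels and files give no probe positions, so signal shared between close relatives is unknown.

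**Figure D5:**
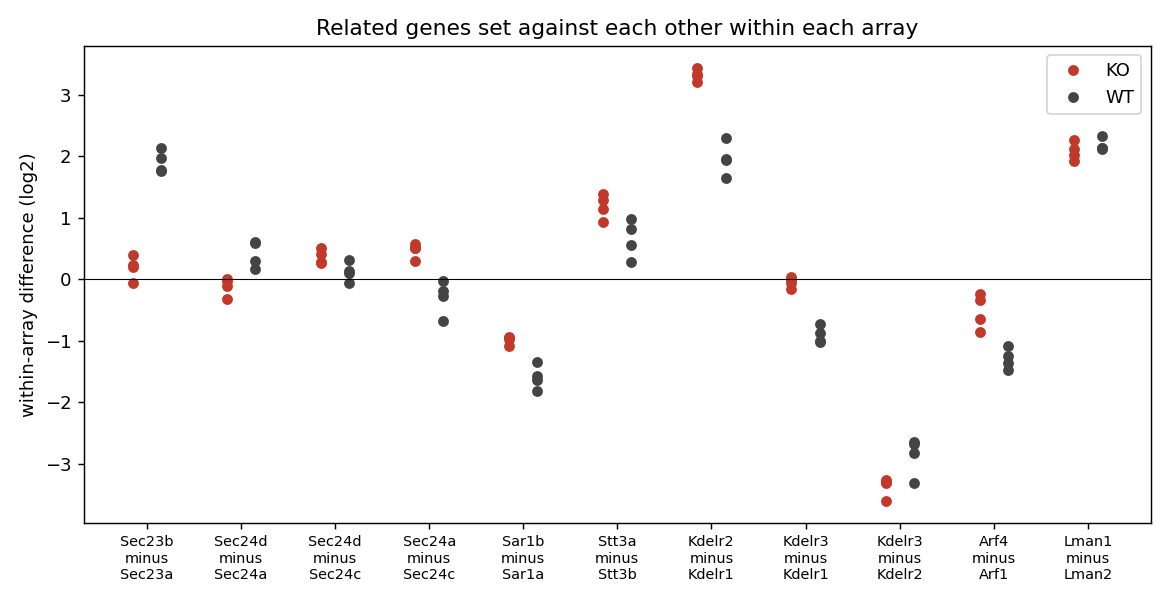
Within-array difference between related genes (log2, y axis) for 11 pairs (x axis), with 1 point per array, KO left of WT. The groups are apart for Sec23b minus Sec23a, Kdelr2 minus Kdelr1, Kdelr3 minus Kdelr1, Arf4 minus Arf1, Sar1b minus Sar1a, Sec24a minus Sec24c and Sec24d minus Sec24a, and overlap for the other 4.

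Of 137 further genes of the same route and its transcription factors, 53 were higher (38.7%) and 4 lower (2.9%), with a median difference of 0.45. Their median level was 5.57. Among all genes at a mean level of 4 to 6, 37.9% were higher and 3.27% lower, with a median difference of 0.47. The further genes as a whole thus lay near what genes of that level show. The shares of the single lists are likewise to be read against the shares by level given above for all genes, and none was tested. Synthesis of the lipid-linked sugar chain and its nucleotide sugars had 13 of 31 genes higher (41.9%) and 0 lower. Of smallest p were Alg12, a mannosyltransferase (1.19 ± 0.14 SE, limma adjusted p = 0.00199), and Pmm1, a phosphomannomutase (2.69 ± 0.40 SE, limma adjusted p = 0.00341). Pmm1 read 4.77 to 7.03 in KO and 2.92 to 2.99 in WT. Tethers and SNAREs between the ER and the Golgi had 15 of 27 higher (55.6%) and 0 lower. The TRAPP subunit Trappc1 (0.97 ± 0.12 SE) and the Golgi SNARE Gosr1 (1.17 ± 0.21 SE) had the smallest p. The ER membrane complex and tail-anchor pathway had 6 of 16 higher (37.5%) and 0 lower, with Get4 (0.74 ± 0.17 SE) and Bag6 (0.58 ± 0.13 SE) of smallest p.

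Other genes of targeting, translocation and signal cleavage had 6 of 13 higher (46.2%) and 1 lower, with a median difference of 0.53. Of the 19 described above, 0 were higher and 1 lower, and the difference between these lists was not tested. Ccdc47, a subunit of the translocon form that handles multipass proteins (1.63 ± 0.22 SE, limma adjusted p = 0.00242), and the chaperone BiP, Hspa5 (1.65 ± 0.23 SE, limma adjusted p = 0.00254), led them. The lower gene, also named after its value was seen, was Sec11c, a catalytic subunit of signal peptidase (-0.63 ± 0.15 SE, limma adjusted p = 0.0185). Its alternative Sec11a, chosen here after its value was seen, rose (0.95 ± 0.15 SE, limma adjusted p = 0.00449). Further subunits of the oligosaccharyl transferase had 2 of 6 higher (33.3%), Ost4 (0.73 ± 0.15 SE) and Tusc3 (1.05 ± 0.30 SE).

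Among further COPII genes 4 of 10 were higher (40%) and 1 lower. Mia3 (TANGO1, which packs bulky cargo, 0.95 ± 0.17 SE) and Sec23ip (1.12 ± 0.22 SE) were the higher ones of smallest p. Sec31b (-0.73 ± 0.15 SE), named after its value was seen, was lower. Among further COPI genes 2 of 10 were higher (20%) and 1 lower, with Gbf1, the exchange factor that activates ARFs, higher (0.67 ± 0.16 SE, limma adjusted p = 0.0187). A relative of Copz1 was lower, and this gene, Copz2, read 8.09, 7.59, 7.73 and 7.83 in KO 1 to KO 4, against 8.77, 8.71, 9.001 and 8.76 in WT 1 to WT 4. The groups lay well apart (-1.001 ± 0.14 SE, limma adjusted p = 0.00248), opposite to the rise of Copz1. Further cargo receptors had 2 of 10 higher (20%), Cnih4 (0.77 ± 0.14 SE) and Yif1a (0.94 ± 0.22 SE). The UPRE core was in the promoters of 4 of the 115 further genes with a window, Gbf1, Scfd1, Sec16b and Stx5a, and all 4 were higher in KO. The Sec16b row was dim, with a mean of 3.79, and its KO and WT values overlapped. It lies under the levels of 4 to 10 used for comparison here. Of the 115 genes, 48 were higher. Among all measured genes of a mean level of 4 to 10, 29 of the 69 with the core were higher, and 1858 of all 4962 with a window.

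Of 14 transcription factors linked to this machinery, 3 rose (21.4%) and 1 fell. Ddit3 (CHOP), a factor of the stress response downstream of PERK, rose by 4.64 ± 0.31 (limma adjusted p = 0.000298). Creb3, an ER-bound factor related to ATF6, read 7.52, 6.49, 7.27 and 7.20 in KO 1 to KO 4, against 6.12, 5.13, 5.95 and 5.58 in WT 1 to WT 4. The groups did not overlap (1.42 ± 0.26 SE, limma adjusted p = 0.00713). Atf6b rose by 0.44 ± 0.12 (limma adjusted p = 0.0328). Bhlha15 (MIST1), which maintains the secretory architecture of acinar cells, fell by 1.42 on the log2 scale (limma adjusted p = 0.00057). Xbp1 itself was 7.56, 7.39, 6.94 and 7.48 in KO 1 to KO 4, against 7.92, 7.18, 7.60 and 7.33 in WT 1 to WT 4. These groups overlapped (-0.17 ± 0.19 SE, limma adjusted p = 0.534), and splicing of Xbp1, which makes the active factor, is not seen in these values. Atf6 (0.67 ± 0.27 SE), Atf4 (0.53 ± 0.20 SE), Creb3l1 (-0.32 ± 0.15 SE), Creb3l2 (-0.05 ± 0.20 SE), Creb3l3 (-0.22 ± 0.18 SE), the CCAAT-binding subunits Nfya (0.51 ± 0.23 SE), Nfyb (0.67 ± 0.23 SE) and Nfyc (0.57 ± 0.20 SE), and Yy1 (0.19 ± 0.16 SE) did not pass.

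The difference between genotypes was also compared between the sexes, with 1 female per genotype. In the limma interaction fit 0 of the 53 genes passed, and 0 had an unadjusted p under 0.05. With 1 female array per genotype the SE of the difference between the sexes was 0.28 to 0.68, so sizable differences would not have been detectable: Sec24a, for example, differed by 0.48 in females and 1.11 in males. Among males only, 3 against 3 arrays, 7 genes were higher and 0 lower.

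Markers of the other cells of the pancreas moved with genotype in some lists. Of 9 acinar markers 0 were higher and 4 lower, and the list mean, centred on each gene's mean, was -0.43 to -0.23 in KO and 0.27 to 0.42 in WT, so that the secretory genes that rose did so in arrays with lower acinar marker values. Stellate and fibroblast markers had 1 of 9 higher and ductal markers 1 of 5 higher and 1 lower. In the limma fit 0 of 8 islet, 0 of 6 neutrophil, 0 of 6 endothelial and 0 of 5 adipocyte markers passed, and of 7 T and NK cell markers 0 were higher and 1 lower. The list means of KO 2 stood above all other arrays for macrophage (6.91), plasma and B cell (3.84), stellate (6.84), endothelial (4.59) and adipocyte (5.33) markers. The part of these cell types in the results was not tested. Without KO 2, 15 of the 53 genes were higher and 1 lower.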

How the data were processed

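Expression was measured on arrays in 4 LmnaKO and 4 LmnaWT pancreas samples. The deposited table holds log2 values (base 2 is inferred from their range of 0.044 to 12.467, since no source states it) for 41345 rows and 8 arrays; the tools listed for them, per the submitters' processing notes, are RMA, oligo and limma. No source used here gives background signal, probe positions or scan batches, and 4 arrays per genotype limit the precision. Of the rows, 23521 had 1 gene symbol, 1814 several and 16010 none; 1082 of the 22180 genes had several rows, of which the one of highest mean was used.

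Genotypes were compared in R 4.3.3 with limma 3.58.1 (lmFit and eBayes, all 8 arrays, genotype only), with Benjamini-Hochberg adjustment over 22180 genes; the code was tested on artificial data. Related genes were compared by exact permutation tests. The members and gene lists were chosen with earlier results of these data known. Values for every array were given for members named by rule (up to 3 of smallest p per step past the threshold, any lower member, and the genes of each separated pair) and for Srp72, Sec61a1, Copz2, Creb3 and Xbp1, a choice made after their values were seen. Of the other lists, the up to 2 genes of smallest p past the threshold and all the transcription factors were named by their differences. Same-numbered KO and WT arrays had correlated deviations (0.26, 0.17, 0.11 and 0.14 for numbers 1 to 4). Every KO array correlated most with the WT array of its own number, and every WT array most with the KO array of its own number. Some differently numbered arrays came close, such as KO 2 with WT 4 (0.12) and KO 1 with WT 3 (0.11), and others were as low as -0.21. The labels give replicate numbers and state no pairing. The main fit and the permutation tests used none, and the replicate number was a block only in 1 alternative. The 18 alternatives changed the scaling, filter, row choice, weighting, sex term, replicate block or arrays.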

Additional observations from a re-analysis of the deposited data

Results flagged for a closer look

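In 10 of the 106 groups of 4 arrays (53 genes, 2 genotypes), 1 array stood apart from the other 3 by Dixon's criterion. Chance gives about 1 in 20 for independent groups. These groups share the same 8 arrays and are not independent, so 1 in 20 is no benchmark for the 10. Most of the 10 were WT 2 or KO 2, the lowest of their genotype in 71.6% and 44.4% of all genes at a mean level of 6 to 10. WT 2 stood low in Sec31a (7.80, others 8.26 to 8.34), Arf4 (7.24, others 7.80 to 7.88), Copg1 (5.57, others 6.23 to 6.36) and Kdelr3 (4.36, others 4.74 to 4.797). KO 2 stood low in Arf1 (9.27, others 9.67 to 9.72), Cope (6.56, others 7.01 to 7.09), Copz1 (7.68, others 7.89 to 7.90) and Kdelr3 (5.12, others 5.72 to 5.84). KO 3 stood low in Sec61a1 (8.83, others 9.02 to 9.03), and KO 1 stood high in Srp72 (8.76, others 8.45 to 8.46).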

How the results depend on the processing

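Over all genes 4792 passed, and the count was 915 among males only, 2288 after quantile rescaling and 2617 after loess rescaling, and between 2240 (without KO 4) and 6070 (without WT 1) when 1 array was left out. A filter on a mean of at least 4 gave 3296, and array weights 6063. The 17 higher secretory genes became 7 among males, 8 after quantile rescaling and 9 after loess rescaling, and 11 (without KO 4) to 19 (without WT 1) with 1 array left out. The 1 lower gene became 0 among males, 0 after median centring, 4 after quantile rescaling and 5 after loess rescaling, and 0 (without KO 4 or without WT 3) to 1 with 1 array left out. The median difference of the 53 genes was 0.17 without WT 2, against 0.26. With the replicate number as a block, which treats same-numbered arrays as pairs, 5046 genes passed in all, with 18 of the 53 higher and 1 lower. Among the 53, this block changed only the call of Srp72.

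Of the 43 differences above 0, 18 turned below 0 after quantile rescaling and 18 after loess rescaling, and of the 10 below 0, 1 turned above 0 in each. Among the genes given for every array by rule these were Sec24c (-0.21 after quantile and -0.23 after loess rescaling) and Kdelr1 (-0.39 and -0.35); the cause was not tested. Of the 18 called genes, 6 kept their call in all 18 alternatives, and 29 of the 35 others were called in none. The 7 separated pairs numbered 6 to 9 in the alternatives run. The count of genes past the threshold for a difference by sex was 0 in each limma fit run (0 at an unadjusted p under 0.05 in the fit as reported), with 1 female array per genotype.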
